A study of Homo sapiens with 6 samples.

Results

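Polyamine metabolism is represented here by 10 genes, taken by symbol: ODC1, OAZ1, OAZ2, AZIN1, AMD1, SRM, SMS, SAT1, SMOX and PAOX. Their rows were found by Ensembl identifier among the 58825 identifiers of a count table, and each symbol matched 1 row. All 10 passed the filter on low counts and were among the 16208 genes tested. The libraries came from SKOV3, a human ovarian cancer cell line, which was transiently transfected either with a negative control siRNA (NC, n = 3) or with an siRNA against EIF5A2 (si-EIF5A2, n = 3). Both groups thus shared the line and the transfection and differed in the siRNA, and RNA was taken at 48 h. The study lists a single siRNA sequence for EIF5A2, so effects of that sequence and of the loss of EIF5A2 cannot be told apart. SKOV3 is a single established line, and the methods say in general that experiments were repeated but not whether these libraries came from separate cultures, so the p-values measure the spread between these libraries, which may be technical.

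Polyamines are small, positively charged molecules that dividing cells need in large amounts. Ornithine decarboxylase makes putrescine, and spermidine synthase and spermine synthase extend it in steps, each time adding an aminopropyl group taken from decarboxylated S-adenosylmethionine. Acetylation and oxidation lead back towards putrescine or out of the cell. Spermidine is also the donor of hypusine, the modified lysine that the translation factors eIF5A and eIF5A2 carry, and EIF5A2 is the gene targeted by the siRNA in these cells.

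The pathway is controlled partly by translation, and the site that does this in the antizyme genes OAZ1 and OAZ2 is shown for that reason. Antizyme is made in full only when the ribosome slips forward by a base at the stop codon that ends the short frame, and polyamines are known to promote this slip. A count of mRNA does not measure it. The stretches below are from GENCODE release 29 (GRCh38), 5′ to 3′, and were read from transcripts whose exon runs across the site. Capitals mark the codon before the stop, the stop codon TGA and the next base.
OAZ1, chr19:2271428-2271454, plus strand: cctcggtggtgcTCCTGATgcccctca
OAZ2, chr15:64691504-64691530, minus strand: cctctgtggtgcTCCTGATgcccctca
The 2 stretches share 26 of 27 bases and differ by G5T, counted from the 5′ end with the base of OAZ1 first. The annotated coding transcripts, 2 of OAZ1 and 3 of OAZ2, leave out the first base of the stop codon.

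Promoter stretches are shown for the 2 members whose windows hold the E-box CACGTG, the sequence bound by MYC and related factors, and for AMD1 and SAT1, the members that passed the call threshold. They are from RefSeq (GRCh38.p14), whose promoter windows reach from 250 bases before a start to 50 after it and were matched by symbol for 7 of the 10 members, in 10 windows. Capitals mark the motif named on each line. The ODC1 stretch lies in the first intron of ODC1-201 in GENCODE release 29, the SRM stretch lies before the gene, and the AMD1 and SAT1 stretches lie just before or across the annotated start.
ODC1, CACGTG, chr2:10447982-10448061, minus strand: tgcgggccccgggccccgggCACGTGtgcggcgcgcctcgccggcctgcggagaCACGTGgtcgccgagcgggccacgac
SRM, CACGTG, chr1:11060187-11060242, minus strand: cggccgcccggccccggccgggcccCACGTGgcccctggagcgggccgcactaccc
AMD1, TATAA, chr6:110874685-110874784, plus strand: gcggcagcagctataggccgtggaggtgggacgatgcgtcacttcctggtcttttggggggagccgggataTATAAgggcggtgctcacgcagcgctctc
SAT1, CCAAT on either strand, chrX:23783073-23783172, plus strand: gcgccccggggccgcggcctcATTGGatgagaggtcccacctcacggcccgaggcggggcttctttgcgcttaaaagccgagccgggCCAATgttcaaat
CACGTG, which reads the same on both strands, was present in 2 of the 10 member windows, those of ODC1 and SRM, and in 7.26% of all 35116 windows. The E2F sites TTTCGCGC, TTTGGCGC and TTTCCCGC, searched on both strands, matched 0 member windows and 2.74% of all windows. TATAA and CCAAT, added after the sequences had been read and also searched on both strands, occur in 20.4% and 34.6% of all windows. TATAA was found in windows of AMD1, OAZ1 and ODC1, and CCAAT in windows of AMD1, OAZ1, SAT1, SMS and SRM. A match of letters is a description of the window and no evidence of binding.

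The table gives estimated counts per gene, with totals of 46900204 to 74142267 per library, NC replicates 1 and 2 being the deepest. The low values cluster at multiples of about 3.82, so a sequenced fragment appears to be worth several counts, and 3 fragments correspond to 0.157 to 0.244 CPM, the counts scaled to a common library total after TMM normalization. EIF5A2 itself had 27.8, 29.8 and 29.9 CPM in NC and 2.76, 4.04 and 4.27 CPM in si-EIF5A2 libraries, 12.7% of its NC level. A gene was called at a fold change over 1.5 with an adjusted p under 0.05 (edgeR quasi-likelihood, Benjamini-Hochberg over all genes tested). The line was checked against markers. KRT8 and KRT18 were abundant, whereas EPCAM and CDH1 were below 2 CPM and MUC16 was listed at 0. The summed level of the 9 epithelial markers was 1506 to 1673 CPM in NC and 956 to 1168 CPM in si-EIF5A2 libraries. Of the 8 tested, 3 were called lower, KRT8, KRT7 and PAX8, beside 13.6% of all genes. The other 5 were not called, KRT18 with a log2 fold change of -0.08. Leukocyte markers (PTPRC and CD3E at 0, the sum nearly all CD68) summed to 40.8 to 57.3 CPM in NC and 28.97 to 55.5 CPM in si-EIF5A2, and the 1 tested was called neither by edgeR nor by DESeq2, its unadjusted p being above 0.05. Endothelial markers summed to 1.94 to 2.37 CPM and 0.156 to 1.001 CPM, with 0 of 2 tested called by edgeR, 1 with an unadjusted p under 0.05 and 1 called by DESeq2. Fibroblast markers summed to 23.4 to 26.5 CPM and 63.6 to 69.4 CPM, nearly all of it ACTA2, which was called higher. PDGFRB was called lower at under 1 CPM, and COL1A2 and DCN were at or near 0. The part of these markers in the results was not tested, and in bulk RNA fewer cells of a kind and less RNA per cell cannot be told apart.

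After EIF5A2 knockdown, 2 of the 10 polyamine genes were called. SAT1, which starts polyamine breakdown, rose to 195% of its NC level, and AMD1, which makes the aminopropyl donor, fell to 52.8%. In fits that left out a single library, SAT1 was called in all 6 and AMD1 in 3. Without NC replicate 1, its highest library, AMD1 had a smaller log2 fold change of -0.60. Among all genes tested 24.6% were called, so the members' share of 20% lay near the background. The single member called higher stands beside 11.1% of all genes, and the single member called lower beside 13.6%. SMS, the spermine synthase, passed the adjusted p with a rise of 1.33-fold, below the fold limit. That made 3 members past the adjusted p alone, against 36.9% of all genes. The same 3 were the members whose NC and si-EIF5A2 ranges did not overlap, against 51.2% of all genes. The median log2 fold change of the 10 members was -0.08, and that of all genes tested was -0.01. For 6 members, ODC1, OAZ1, AZIN1, SRM, SMS and SMOX, the 95% interval lay within a 1.5-fold change in either direction. The share of all genes with such an interval was not counted.

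**Figure D1:**
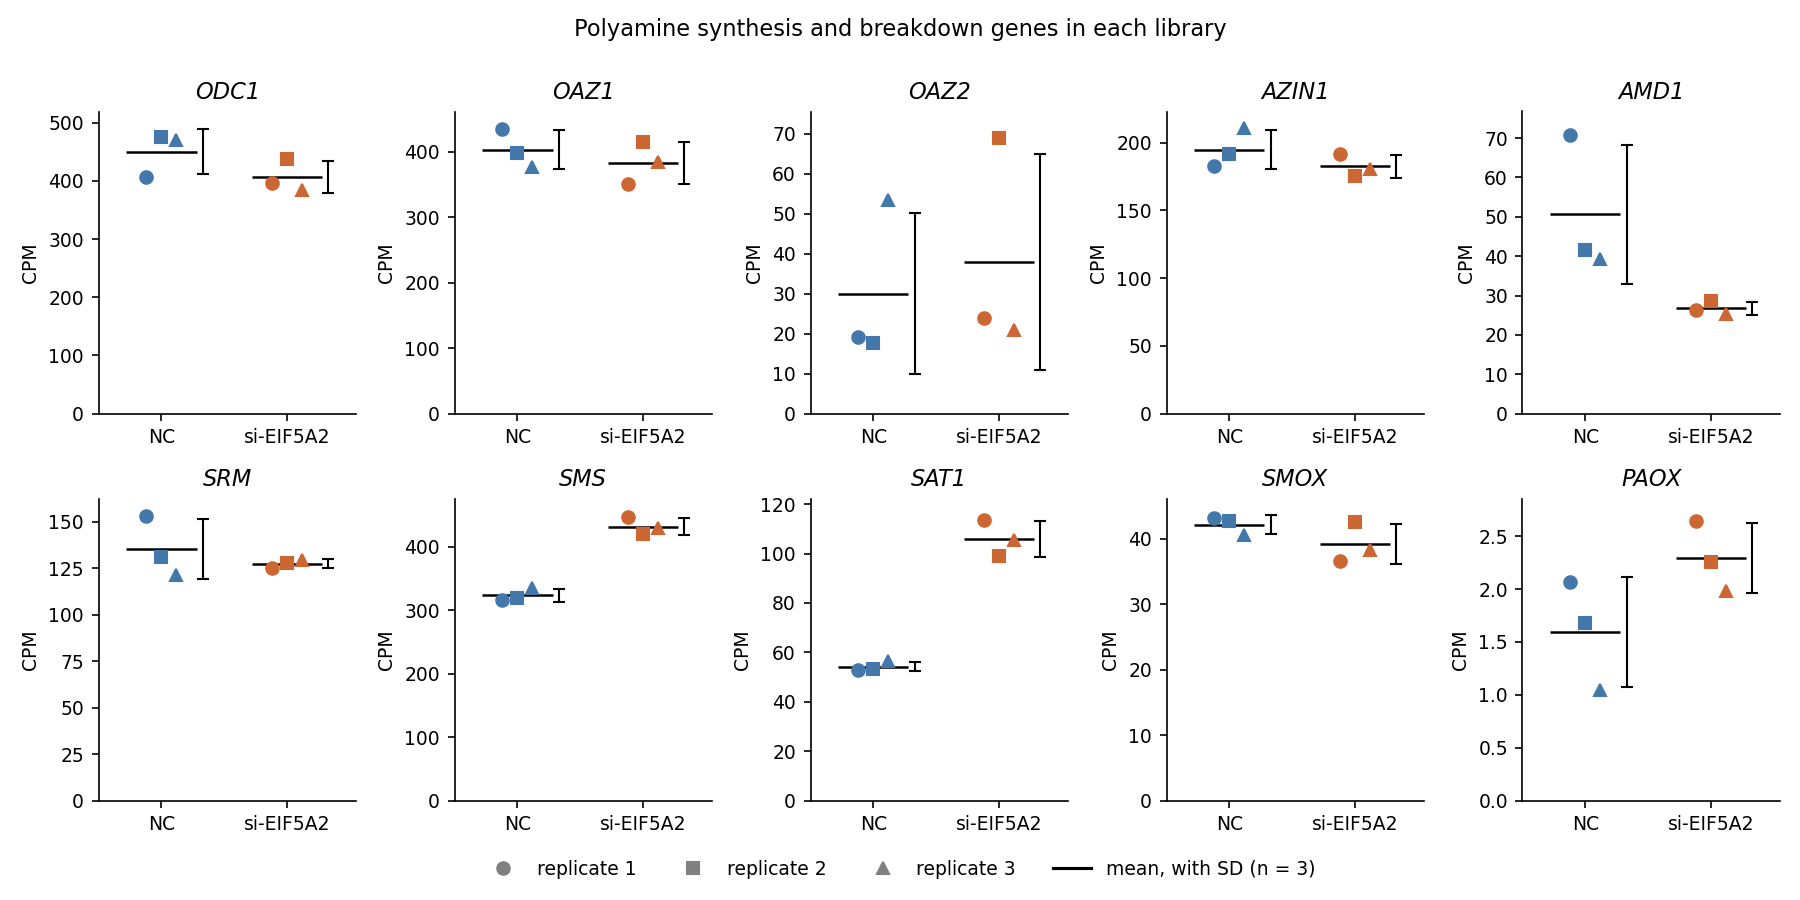
CPM after TMM scaling of each of the 10 polyamine genes in the 3 NC and 3 si-EIF5A2 libraries, 1 panel per gene, with points for libraries and a line for the group mean with its SD. SAT1 and SMS lie higher in every si-EIF5A2 library than in every NC library, AMD1 lies lower, and the other 7 genes overlap between groups.

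ODC1 (ENSG00000115758, chr2:10439968-10448504, minus strand, GRCh38) encodes ornithine decarboxylase, the enzyme that makes putrescine. It had 406, 475 and 471 CPM in NC replicates 1 to 3 and 397, 437 and 384 CPM in si-EIF5A2 replicates 1 to 3. The highest si-EIF5A2 library lay above the lowest NC library, so the groups overlapped. Mean levels were 450.6 ± 38.5 CPM against 406.1 ± 27.6 CPM (SD, n = 3 each). This gave a log2 fold change of -0.15 (SE 0.09, 95% interval -0.36 to 0.05, adjusted p = 0.232, edgeR with Benjamini-Hochberg) and did not pass the test. ODC1 carries a pair of E-boxes in the stretch shown above, and its interval runs from 0.782-fold to 1.04-fold of the NC level.

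The antizymes bind ornithine decarboxylase, block it and deliver it to the proteasome, and they also limit polyamine uptake. OAZ1 (ENSG00000104904, chr19:2269509-2273490, plus strand) is the main one. Its NC libraries had 435, 398 and 376 CPM and its si-EIF5A2 libraries 350, 414 and 384 CPM, and the groups overlapped. Its log2 fold change was -0.07 (SE 0.09, 95% interval -0.28 to 0.13, adjusted p = 0.573, edgeR with Benjamini-Hochberg).

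OAZ2 (ENSG00000180304, chr15:64687573-64703281, minus strand), the second antizyme, was the least even member. It had 19.2, 17.5 and 53.3 CPM in NC and 24.0, 68.9 and 20.8 CPM in si-EIF5A2 libraries. NC replicate 3 and si-EIF5A2 replicate 2 stood far above the other libraries, 1 in each group, and the groups overlapped. The spread within groups was 0.92 on the log2 scale, larger than in 90.9% of genes tested. OAZ2 had a log2 fold change of 0.34 (SE 0.70, 95% interval -1.46 to 2.14, adjusted p = 0.753, edgeR with Benjamini-Hochberg). It turned to -0.42 without si-EIF5A2 replicate 2 and was 1.04 without NC replicate 3. Without both of these libraries it was 0.28 (adjusted p = 0.195, edgeR with Benjamini-Hochberg), a choice made after the values were seen. OAZ1 had 376 and 414 CPM in the same pair of libraries, within the range of its other libraries.

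AZIN1 (ENSG00000155096, chr8:102826357-102893864, minus strand) encodes antizyme inhibitor 1, a relative of ornithine decarboxylase that binds antizyme and so frees the enzyme. The NC libraries had 182, 192 and 211 CPM and the si-EIF5A2 libraries 192, 175 and 180 CPM. The groups overlapped, and NC replicate 3 was the highest library. The fitted log2 fold change was -0.10 (SE 0.08, 95% interval -0.28 to 0.09, adjusted p = 0.405, edgeR with Benjamini-Hochberg).

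AMD1 (ENSG00000123505, chr6:110874770-110895713, plus strand) encodes S-adenosylmethionine decarboxylase, which makes the aminopropyl donor for both synthases. It had 70.8, 41.6 and 39.4 CPM in NC and 26.2, 28.5 and 25.4 CPM in si-EIF5A2 libraries. The groups did not overlap, the si-EIF5A2 libraries all being lower, and NC replicate 1 stood well above the other NC libraries. Mean levels were 50.6 ± 17.5 CPM against 26.7 ± 1.64 CPM (SD, n = 3 each). AMD1 had a log2 fold change of -0.92 (SE 0.23, 95% interval -1.47 to -0.38, adjusted p = 0.0187, edgeR with Benjamini-Hochberg), and 13.6% of genes tested had a lower value. Without NC replicate 1 the fall was smaller, -0.60, and AMD1 was still called (adjusted p = 0.00442, edgeR with Benjamini-Hochberg). The call was lost without si-EIF5A2 replicate 1, 2 or 3, at adjusted p of 0.0665, 0.0546 and 0.0665 (edgeR with Benjamini-Hochberg), at log2 fold changes of -0.92, -0.97 and -0.89.

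Of the aminopropyl transferases, SRM (ENSG00000116649, chr1:11054584-11060024, minus strand), the spermidine synthase, had 153, 131 and 122 CPM in NC and 125, 128 and 129 CPM in si-EIF5A2 libraries. The si-EIF5A2 libraries lay inside the NC range, and NC replicate 1 was the highest library. Its log2 fold change was -0.09 (SE 0.09, 95% interval -0.30 to 0.13, adjusted p = 0.535, edgeR with Benjamini-Hochberg). It turned to 0.012 without NC replicate 1. SRM and ODC1 were both among the 7 members past neither threshold, and any link to the E-box in their windows was not tested.

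SMS (ENSG00000102172, chrX:21940573-21994835, plus strand), the spermine synthase, had 317, 319 and 336 CPM in NC and 447, 420 and 430 CPM in si-EIF5A2 libraries. The groups were far apart and each was narrow, with a spread within groups smaller than in all but 1.73% of genes tested. Mean levels were 323.9 ± 10.2 CPM against 432.1 ± 13.8 CPM (SD, n = 3 each). SMS had a log2 fold change of 0.42 (SE 0.07, 95% interval 0.26 to 0.57, adjusted p = 0.00176, edgeR with Benjamini-Hochberg), which is 1.33-fold with an interval of 1.201 to 1.48. SMS was thus higher by less than the fold limit of 1.5, and leaving out any single library gave 0.38 to 0.44.

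On the breakdown side, SAT1 (ENSG00000130066, chrX:23783173-23786226, plus strand) encodes spermidine/spermine N1-acetyltransferase, which acetylates polyamines for oxidation or export. It had 53.0, 53.3 and 56.6 CPM in NC and 113, 98.9 and 105 CPM in si-EIF5A2 libraries. The lowest si-EIF5A2 library was well above the highest NC library. Mean levels were 54.3 ± 1.996 CPM against 105.9 ± 7.28 CPM (SD, n = 3 each). SAT1 had a log2 fold change of 0.96 (SE 0.08, 95% interval 0.77 to 1.15, adjusted p = 8.28e-05, edgeR with Benjamini-Hochberg), higher than in 92.1% of genes tested. Leaving out any single library gave 0.91 to 1.01, and SAT1 was called in all 6 of these fits.

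SMS and SAT1 both lie on the plus strand of chromosome X, 1.79 megabases apart. Of the 5 genes tested between them, PRDX4, a peroxiredoxin next but one to SAT1, was called higher with a log2 fold change of 1.9996, and PHEX was called lower with -1.56. ACOT9, the tested gene next to SAT1, had 0.50 and passed the adjusted p alone (adjusted p = 0.00293, edgeR with Benjamini-Hochberg). FAM3C2P and PTCHD1 had 0.72 and 1.37 and were not called (adjusted p = 0.218 and 0.182, edgeR with Benjamini-Hochberg). Of the 5, 1 was thus called higher and 1 lower, beside 11.1% and 13.6% of all genes. Any effect of position was not tested.

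The oxidases showed no called change. SMOX (ENSG00000088826, chr20:4120980-4187747, plus strand), which oxidizes spermine directly, had 43.2, 42.7 and 40.6 CPM in NC and 36.6, 42.5 and 38.2 CPM in si-EIF5A2 libraries, with 1 si-EIF5A2 library inside the NC range. Its log2 fold change was -0.11 (SE 0.09, 95% interval -0.32 to 0.10, adjusted p = 0.406, edgeR with Benjamini-Hochberg). PAOX (ENSG00000148832, chr10:133379234-133391694, plus strand), which oxidizes acetylated polyamines, the products of SAT1, was the lowest member. It had 2.07, 1.68 and 1.04 CPM in NC and 2.64, 2.26 and 1.98 CPM in si-EIF5A2 libraries, and the groups overlapped only through NC replicate 1 and si-EIF5A2 replicate 3. The log2 fold change of PAOX was 0.52 (SE 0.31, 95% interval -0.19 to 1.23, adjusted p = 0.234, edgeR with Benjamini-Hochberg), so at this depth neither no change nor a 2.34-fold rise lay outside its interval.

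Set among all genes tested, the members ranged widely in level. The 3 most abundant by CPM, ODC1, OAZ1 and SMS, had log2 fold changes between -0.15 and 0.42.

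**Figure D2:**
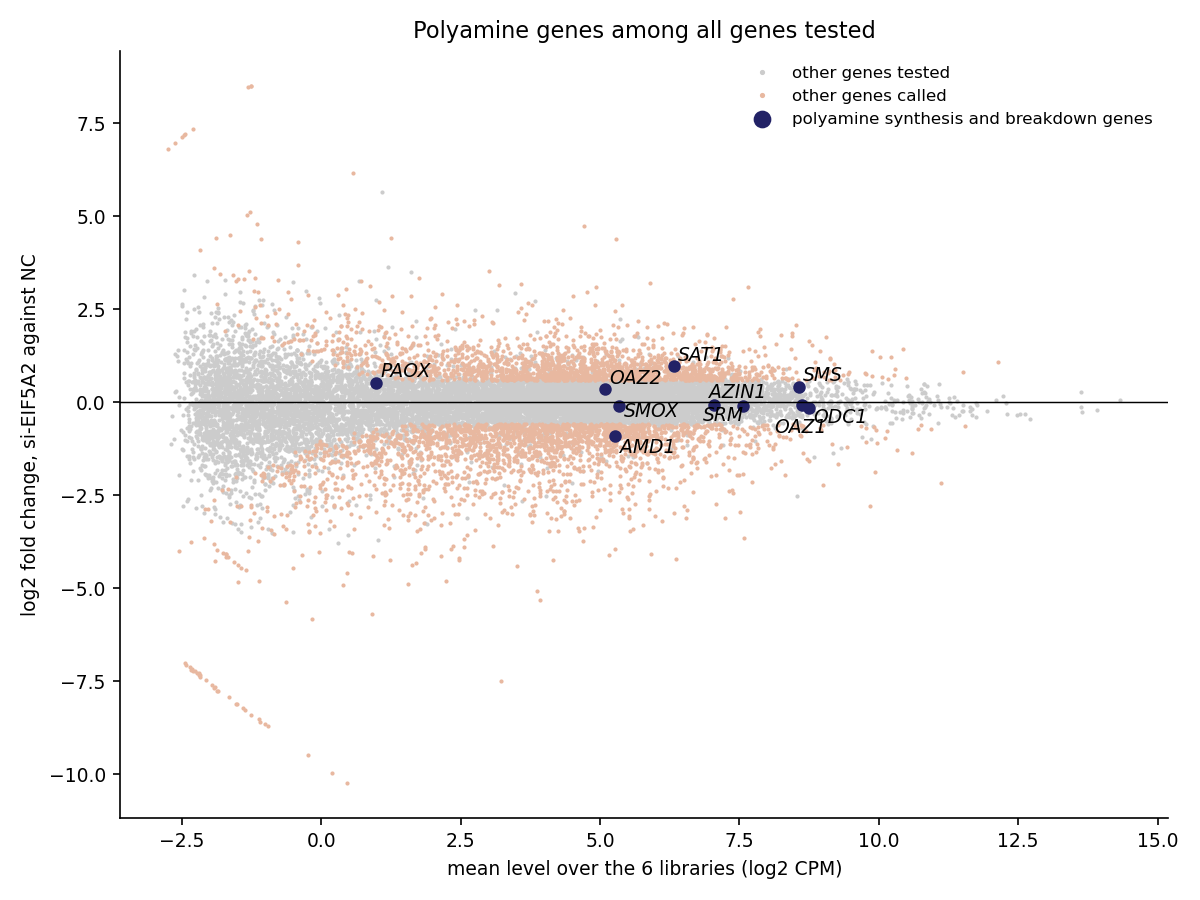
Log2 fold change against the mean level over the 6 libraries (log2 CPM) for all 16208 genes tested, with the polyamine genes as large dark points. SAT1 and AMD1 lie among the called genes, and the other 8 members lie in the band that was not called.

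Levels of different genes were compared per length, as CPM per kilobase of annotated exon in the NC libraries. ODC1 (152 ± 13.0, SD, n = 3) and SMS (150 ± 4.71, SD, n = 3) were highest, and their ranges overlapped. OAZ1 followed with 117 ± 8.64 CPM per kilobase, SRM with 71.2 ± 8.51 and AZIN1 with 30.3 ± 2.23 (SD, n = 3 each). SAT1, SMOX, AMD1, OAZ2 and PAOX had 21.7 ± 0.799, 14.3 ± 0.476, 7.20 ± 2.50, 3.91 ± 2.63 and 0.701 ± 0.228 CPM per kilobase (SD, n = 3 each). Apart from ODC1 with SMS and AMD1 with OAZ2, neighbours in this order did not overlap. In si-EIF5A2 libraries, SMS had 200 CPM per kilobase and ODC1 137, SAT1 had 42.4 and AZIN1 28.4, and AMD1 had 3.803 and OAZ2 4.94. The order depended on the length used. Per kilobase of the longest protein-coding transcript, a choice made after the values were seen, OAZ1 came first with 351 CPM per kilobase, above SMS with 176 and ODC1 with 170.

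Ratios within a library do not depend on how libraries are scaled. They were compared with 2-sided exact permutation tests over 3 and 3 libraries, for which 0.10 is the smallest possible p, and adjusted over the 4 ratios. The counts of SMS per count of SRM were 2.07, 2.44 and 2.76 in NC and 3.58, 3.28 and 3.32 in si-EIF5A2 libraries. All si-EIF5A2 ratios were above all NC ratios, a difference of 0.49 on the log2 scale (exact permutation p = 0.10, adjusted p = 0.20). SAT1 per SMS was 0.167, 0.167 and 0.169 in NC and 0.254, 0.236 and 0.245 in si-EIF5A2 libraries. The NC ratios were nearly identical and the si-EIF5A2 ratios were all higher, by 0.55 on the log2 scale (exact permutation p = 0.10, adjusted p = 0.20). The ratio of ODC1 to its inhibitor OAZ1 overlapped between groups, with a log2 difference of -0.07 (exact permutation p = 0.70, adjusted p = 0.80). The ratio of AZIN1 to OAZ1 also overlapped, with a log2 difference of -0.02 (exact permutation p = 0.80, adjusted p = 0.80). None of the 4 ratios passed the threshold, which this design could not reach.

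**Figure D3:**
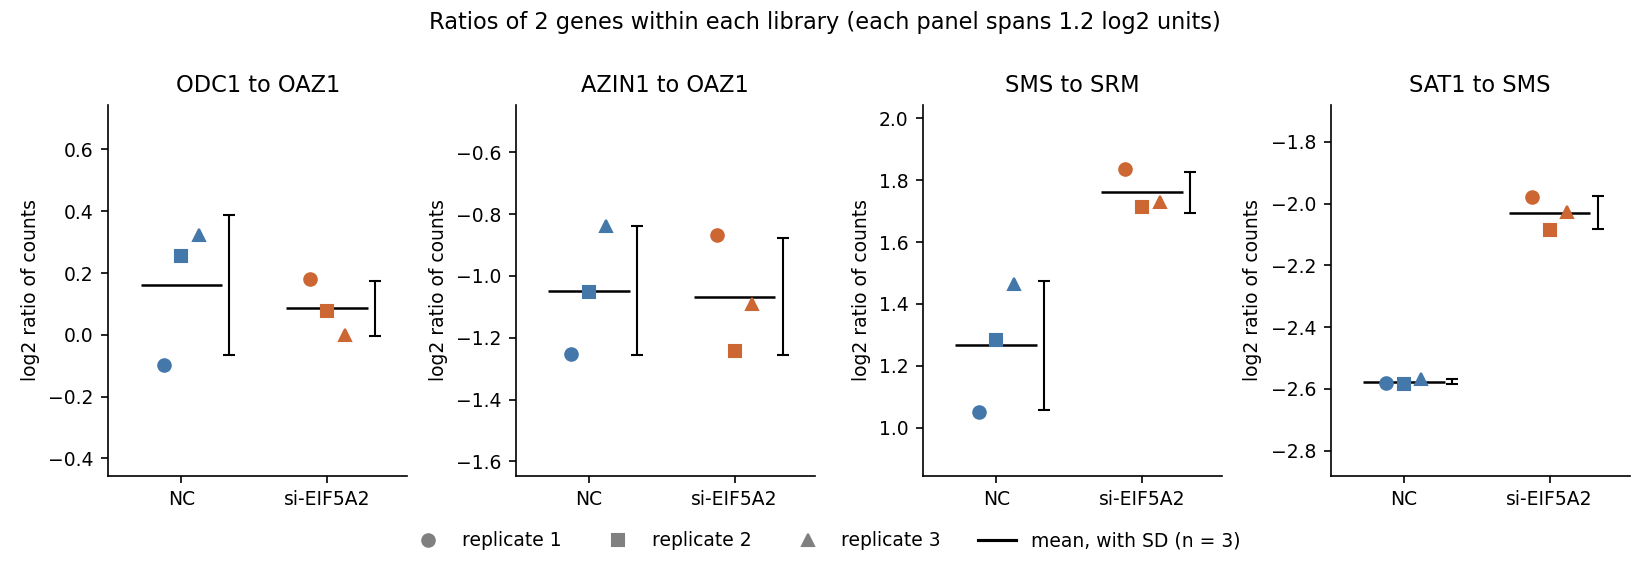
Log2 ratio of the counts of 4 pairs of polyamine genes within each of the 3 NC and 3 si-EIF5A2 libraries. SMS to SRM and SAT1 to SMS lie higher in all si-EIF5A2 libraries, while ODC1 to OAZ1 and AZIN1 to OAZ1 overlap between groups.

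The genes around the pathway were taken from lists of transport, hypusination, methionine supply and other synthesis and breakdown genes. Of 33 genes listed, 24 were tested and 7 were called, 3 higher and 4 lower, the targeted EIF5A2 among the latter. That is 29.2%, or 26.1% without EIF5A2, near the 24.6% of all genes called. The median log2 fold change of the 24 was 0.08. Transport held 4 of these calls among its 8 tested genes, or 50%, and 7 of the 8 passed the adjusted p, beside 24.6% and 36.9% of all genes. The list is short, and no test compared it with other genes. ATP13A3, a polyamine transporter of the P-type ATPase family, had 88.4, 100 and 99.6 CPM in NC and 388, 346 and 387 CPM in si-EIF5A2 libraries. Mean levels were 96.1 ± 6.69 CPM against 374 ± 24.0 CPM (SD, n = 3 each), and the log2 fold change was 1.96 (SE 0.09, adjusted p = 5.64e-06, edgeR with Benjamini-Hochberg), larger than that of any of the 10 members. SLC22A3, an organic cation transporter, rose by 1.04 and SLC7A2, a transporter of cationic amino acids, by 0.71 on the log2 scale. SLC47A1, an exporter of organic cations, fell by 1.02. ATP13A2, SLC7A1 and SLC18B1 passed the adjusted p but not the fold limit, with -0.52, -0.36 and 0.36, and SLC3A2 had -0.27 and passed neither.

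In the hypusination list, 2 of 4 genes were called, both lower and 1 of them the target of the siRNA, beside 13.6% of all genes called lower. EIF5A2 fell by 2.98 on the log2 scale (SE 0.18, adjusted p = 1.6e-05, edgeR with Benjamini-Hochberg). DHPS, the deoxyhypusine synthase that consumes spermidine, had 10.6 ± 0.549 CPM against 7.01 ± 1.04 CPM (SD, n = 3 each), and its log2 fold change was -0.60 (adjusted p = 0.0158, edgeR with Benjamini-Hochberg). DHPS shares exon sequence on its own strand with ENSG00000285589, whose counts reached 881% of its own. WDR83 overlaps DHPS on the other strand, with counts of up to 105% of those of DHPS. The value of DHPS is therefore uncertain. DHPS also missed the fold limit when NC replicate 3 (-0.57) or si-EIF5A2 replicate 3 (-0.49) was left out. DOHH (0.10) and EIF5A (0.22), the paralog of the target, were not called.

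The methionine list had 0 of 6 tested genes called by edgeR and 0 by DESeq2. In it 3 had an unadjusted p under 0.05, and the share of all genes past that limit was not counted. APIP of the salvage pathway passed the adjusted p alone with a log2 fold change of 0.51. MAT2A, which makes the substrate of AMD1, had -0.06. MTAP, which clears the by-product of both aminopropyl transferases, was not tested, with counts of 0, 3 and 0 in NC and 0, 5 and 0 in si-EIF5A2 libraries, all under the 3-fragment floor. Of the other breakdown genes 0 of 2 tested were called by edgeR, 0 by DESeq2 and 0 had an unadjusted p under 0.05, SAT2 having a log2 fold change of 0.04. Of the other synthesis and control genes 1 of 4 was called. AGMAT, an agmatinase by name, fell by 0.89 from 3.32 CPM. It lost its call without NC replicate 1, NC replicate 2, si-EIF5A2 replicate 1 or si-EIF5A2 replicate 3, with log2 fold changes of -0.89, -0.83, -0.72 and -0.92. The remaining antizyme and antizyme inhibitor genes, OAZ3 and AZIN2, had 0.80 and 0.74 (adjusted p = 0.0942 and 0.0677, edgeR with Benjamini-Hochberg) and were not called. DNAJC16 overlaps AGMAT on the other strand with counts of up to 884% of its own.

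**Figure D4:**
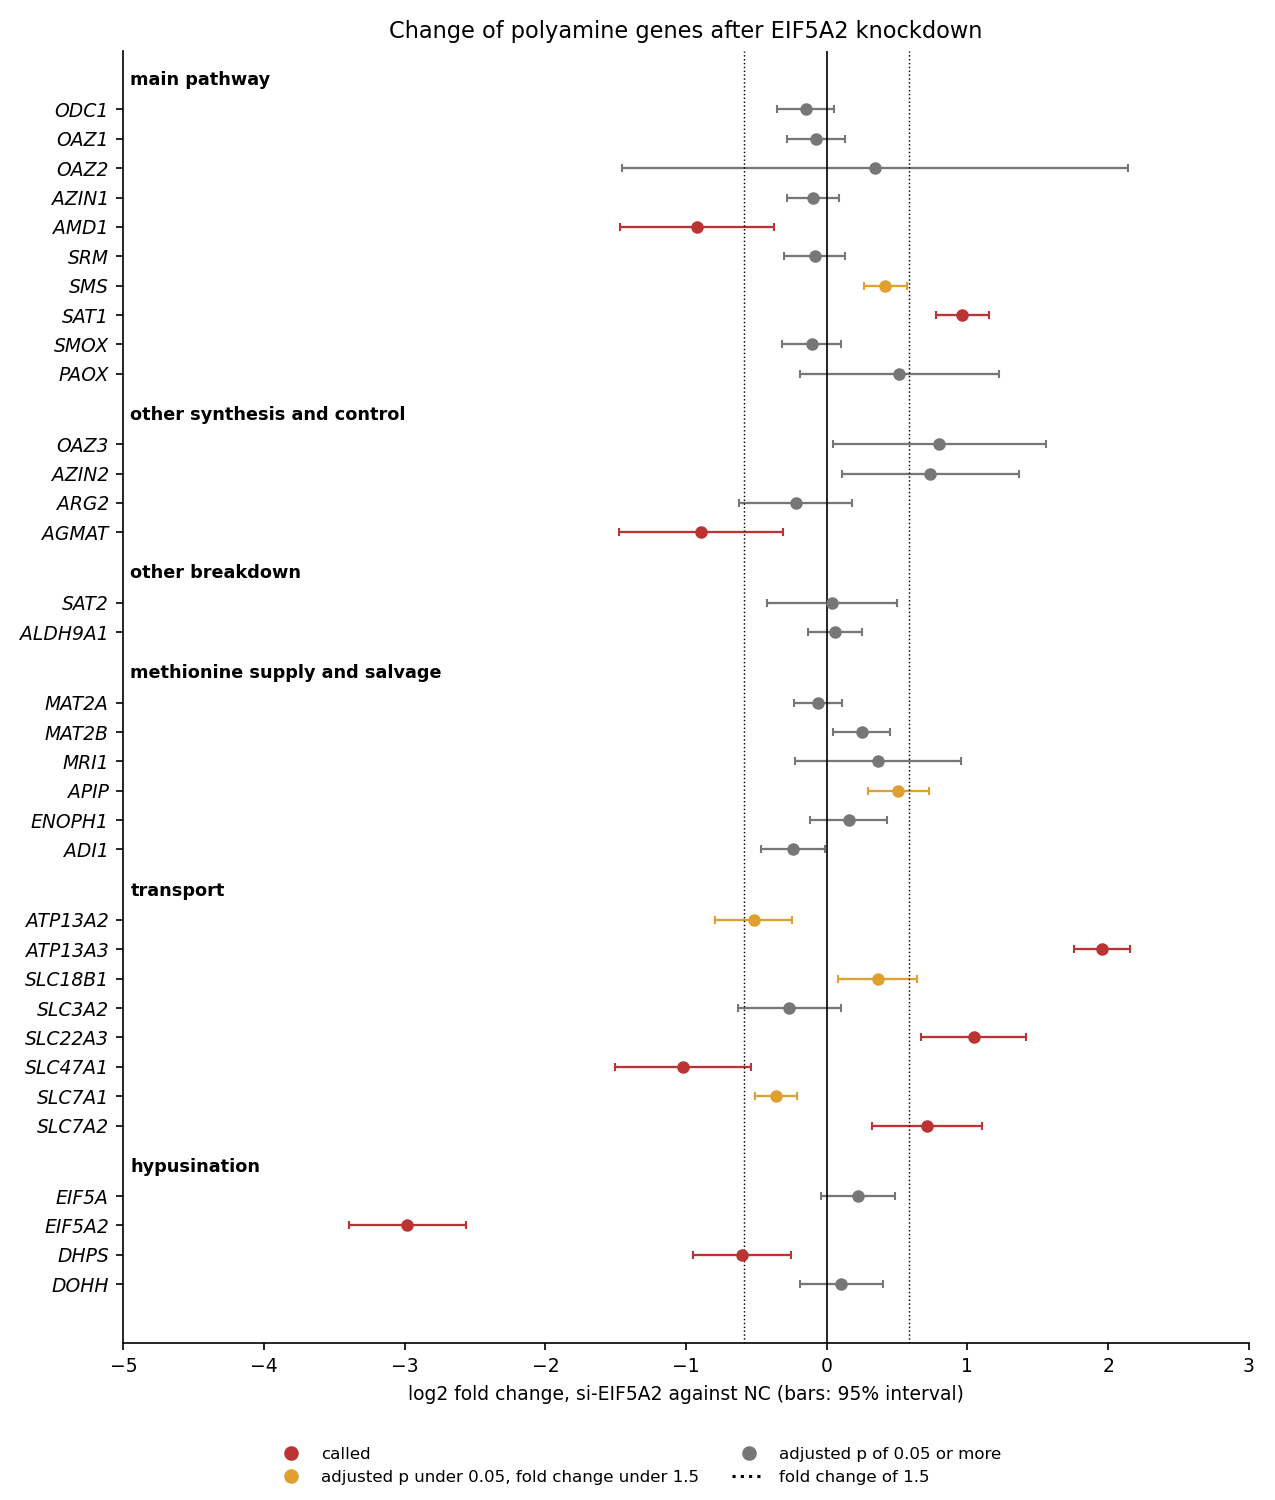
Log2 fold change of si-EIF5A2 against NC with 95% intervals from the edgeR fit, for the 10 members (main pathway) and the 24 tested genes of the other polyamine lists; colors mark called genes, genes past the adjusted p only and the rest, and dotted lines mark a 1.5-fold change. Among the members SAT1 at 0.96 and AMD1 at -0.92 lie past the lines and OAZ2 has the widest interval, while ATP13A3 at 1.96 and EIF5A2 at -2.98 lie farthest out.

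The 9 pseudogenes or antisense genes named after members had 0 counts in every library. Whether reads from these genes were counted under the members instead was not tested. Genes overlapping a member's exons reached at most 1.32% of the member's counts.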

How the data were processed

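The authors sequenced paired-end mRNA libraries of 6 samples, ran StringTie and ballgown to estimate expression, and deposited estimated counts for each gene, in whole numbers that are not normalized. The aligner, annotation release and build behind it are not given in the sources used here. The submitters' processing notes name Bowtie 0.12.2 with mm8 and mm9, mouse builds that do not match this human table. All columns were matched to samples by name, with 0 left over.

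The estimated counts were already whole and entered edgeR 4.0.16 (R 4.3.3) unchanged: filterByExpr, TMM, robust quasi-likelihood fits on all 6 libraries with condition as the only term, and Benjamini-Hochberg adjustment over 16208 genes. The planned test was for counts. Calls were made at a fold change over 1.5 with an adjusted p under 0.05. Totals of 46900204 to 74142267 counts correspond to about 12277540 to 19408970 fragments if each is worth 3.82 counts. The fragments set the precision, and floors and intervals cover counting error or spread between libraries only. Positions, exon lengths and overlaps came from GENCODE release 29 (GRCh38), which held 58552 of 58825 identifiers, and 58472 had a symbol. Strand in the authors' counting is not given in the sources used here, so a gene and its antisense partner cannot be told apart.

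The genes named are the 10 members, EIF5A2, called genes of the 5 other polyamine lists, and pseudogenes or antisense genes named after members. Marker genes are named as a check of the line, and DNAJC16, WDR83 and ENSG00000285589 as genes whose exons overlap a named gene. ATP13A2, SLC7A1, SLC18B1, SLC3A2, DOHH, EIF5A, APIP, MAT2A, MTAP, SAT2, OAZ3, AZIN2, PRDX4, PHEX, ACOT9, FAM3C2P and PTCHD1 were added to these with their values known. Members and lists were chosen with earlier results of these data known. Alternatives were DESeq2 1.42.0, 3 other normalizations, 2 other filters, the replicate number as a block, counts divided by their step of 3.82, symbols summed, each library left out, and 2 other thresholds. The fits were tested on simulated data. Of the genes in the marker lists, 1 is not reported here.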

Additional observations from a re-analysis of the deposited data

How the results depend on the processing

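For ODC1, OAZ1, AZIN1, SMS, SAT1, SMOX and PAOX, all 16 alternatives gave the same direction and the same side of the threshold. The log2 fold change of SAT1 ran from 0.91 to 1.04 across them. Over all fits that left out libraries, including 1 chosen after seeing the data that left out both NC replicate 3 and si-EIF5A2 replicate 2, AMD1 ran from -1.13 to -0.60, OAZ2 from -0.42 (without si-EIF5A2 replicate 2) to 1.04 and SRM from -0.17 to 0.012 (without NC replicate 1). In these fits the number of members called was 1 to 2, and that of other polyamine genes called was 4 to 7. For the ratios, which were recomputed without 1 library at a time only, the log2 difference was -0.20 to 0.0068 for ODC1 to OAZ1 and -0.12 to 0.086 for AZIN1 to OAZ1. AMD1 lost its call without any 1 of the si-EIF5A2 libraries (-0.92, -0.97 and -0.89). It kept the call in fits of the same size without any 1 of the NC libraries (-0.60, -1.05 and -1.08). The cause of this difference was not tested. The ratio of AZIN1 to OAZ1 turned to 0.086 without NC replicate 3 and to 0.068 without si-EIF5A2 replicate 2, and that of ODC1 to OAZ1 to 0.0068 without NC replicate 3. The cause of these turns was not tested. At the limits in the study's methods (a 2-fold change and p under 0.05 without adjustment) 0 members and 4 of the other polyamine genes were called. EIF5A2 was among the 4, and SAT1 with 0.96 lay just under the 2-fold limit. The share of all genes at these limits was not counted, so these counts have no background beside them. With no limit on the fold change 3 members and 11 other polyamine genes were called, beside 36.9% of all genes. Members past an unadjusted p under 0.05 numbered 3, and the share of all genes past that limit was not counted. Without NC replicate 3 and si-EIF5A2 replicate 2, 4 of the other polyamine genes were called. SLC47A1, SLC7A2 and DHPS were lost at -1.01, 0.69 and -0.62, and the cause was not tested. Per kilobase of the longest protein-coding transcript, levels in NC moved by at least the SD of the NC libraries for 9 of 10 members. PAOX went from 0.701 to 0.860 CPM per kilobase, a shift smaller than its wide SD of 0.228.

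Replicate numbers did not pair the samples: deviations of libraries with the same number correlated at -0.024, 0.0052 and -0.0027. With the replicate number as a block, the count of members called was 2, AMD1 had -0.87 (adjusted p = 0.0226, edgeR with Benjamini-Hochberg) and 8 other polyamine genes were called.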
